A study of Mus musculus with 6 samples.

Results

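The matrix metalloproteinases and their tissue inhibitors were examined in poly(A)-selected RNA of mouse RPE/choroid, the retinal pigment epithelium together with the vascular layer behind it. The genes were taken by symbol from the authors' table, and all 10 of 10 were found among the 33924 genes it lists: the 6 metalloproteinases Mmp2, Mmp3, Mmp9, Mmp12, Mmp13 and Mmp14 and the 4 inhibitors Timp1, Timp2, Timp3 and Timp4. The study compared 3 young with 3 aged C57BL/6J mice, an inbred wild-type strain, with no treatment and with both eyes of a mouse in a sample. Young mice were 1 to 2 months old by their labels. Aged mice were 20 to 24 months old by the sample titles, while a separate age label says 22 to 24 months. Every mouse is labelled male, although the methods of the study mention females too and put the young group at a somewhat later age.

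The table holds a single level for each gene, which is the authors' mean normalized count over the 6 libraries of both ages, here named the mean count. The difference between the ages is present only as the authors' own fold changes and p-values, which are not used here. No value per mouse could be given, no SD could be computed and no test was run, so every value below is a level in the pooled young and aged RPE/choroid and a ratio is a description of that pool. A gene with unequal levels at the 2 ages is represented by their average. In bulk tissue, fewer cells of a type and less RNA per cell cannot be told apart.

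Matrix metalloproteinases are zinc-dependent endopeptidases that are made as inactive proenzymes and cut collagens, elastin, laminins and other proteins outside the cell. Tissue inhibitors bind the active site of these enzymes, and their balance sets how quickly a matrix turns over. In the eye the balance is best known for Bruch's membrane, the layered sheet of collagen and elastin between the RPE and the choroidal capillaries. TIMP3 is the inhibitor that stays bound to matrix and is deposited there, and mutations of its human gene cause Sorsby fundus dystrophy.

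To compare genes of different length, each mean count was divided by the length of the gene's longest annotated transcript in kilobases. This quantity is named the level per kilobase. It takes the mean counts as not yet divided by length, a reading inferred from the values and not stated by the authors. Among the 17923 genes with a mean count of at least 10 and an annotated length, the median level per kilobase was 214. All 10 genes had a mean count above 100, 6 were above 1000 and 3 were above 10000. The levels per kilobase spanned a ratio of 366 from Timp3 to Mmp9. That ratio was 213 with the median transcript, where Mmp13 was the lowest gene with a ratio of 380.0, and 1881 with the longest coding sequence. With the longest transcript, 7 of the 10 genes lay in the upper 50% of genes. Only Timp3, Mmp3 and Timp2 lay in the upper 5%.

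**Figure D1:**
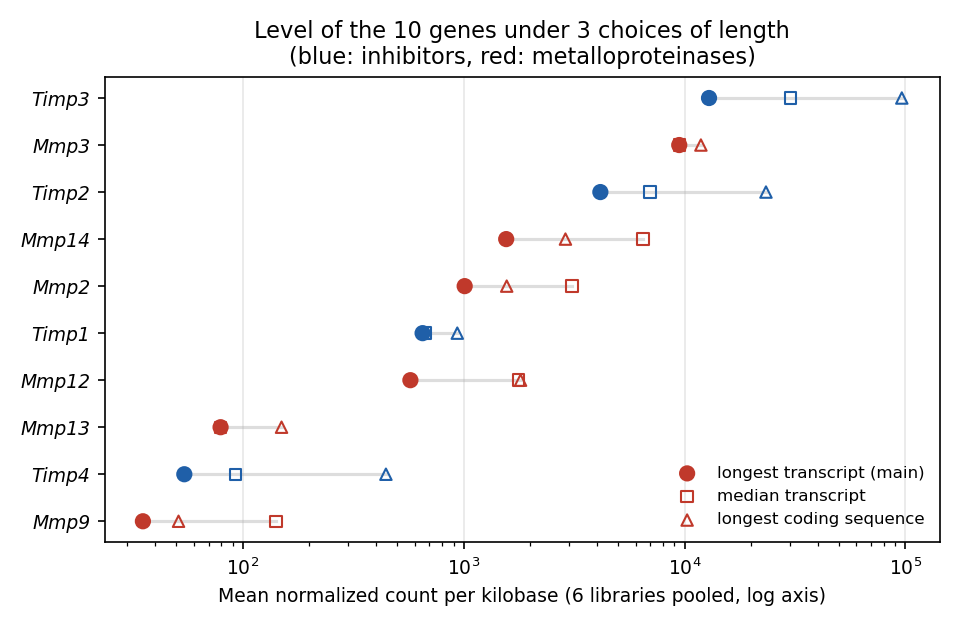
Horizontal axis, mean normalized count per kilobase over the 6 pooled libraries (log axis); each row is 1 gene, with the level for the longest transcript (filled circle), the median transcript (open square) and the longest coding sequence (open triangle), inhibitors in blue and metalloproteinases in red. Timp3 is highest under each choice of length (12909 with the longest transcript), and Mmp13, Timp4 and Mmp9 lie below the other 7 genes under each choice. The symbols show the effect of the length chosen and are not errors between mice.

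Timp3 was the highest of the 10 genes. It is annotated as ENSMUSG00000020044 at 86300372 to 86349506 of chromosome 10 in GRCm38, plus strand. Its mean count was 60954, which is 0.149% of all counts in the table. Its level per kilobase was 12909, and 98.5% of genes were lower. Timp3 alone held 72.6% of the summed level per kilobase of the 4 inhibitors.

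Timp2 encodes the inhibitor that, besides blocking metalloproteinases, helps membrane-bound MMP14 to activate proMMP2. It lies at 118301069 to 118355740 of chromosome 11, minus strand. Timp2 had a mean count of 15423 and a level per kilobase of 4158, with 95.4% of genes lower. The level per kilobase of Timp3 was 3.10 times that of Timp2.

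The other two inhibitors were far less abundant. Timp1, an inducible and secreted inhibitor, lies at 20870166 to 20874735 of the X chromosome, plus strand. It had a mean count of 576 and a level per kilobase of 652, with 74.4% of genes lower. Timp4, at 115241892 to 115252205 of chromosome 6 on the minus strand, had a mean count of 299. Its level per kilobase was 54.4, which placed 25.1% of genes below it, and the level per kilobase of Timp3 was 237 times as high.

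Among the metalloproteinases, Mmp3 (ENSMUSG00000043613) was the most abundant. It encodes stromelysin-1, an enzyme that cuts proteoglycans, laminin and fibronectin and that activates other proenzymes of the family. Mmp3 had a mean count of 17042 and a level per kilobase of 9463, with 97.9% of genes lower. It held 74.4% of the summed level per kilobase of the 6 metalloproteinases, and its level per kilobase was 6.07 times that of the next, Mmp14. That share depends on the lengths used, since Mmp14 and Mmp2 have several short annotated transcripts and Mmp3 has 1 transcript. With the median transcript in place of the longest, Mmp3 held 45.0% and its level was 1.46 times that of Mmp14, and with no correction for length it was 3.38 times.

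Mmp14 encodes the membrane-bound enzyme that acts as a collagenase at the cell surface and activates proMMP2. It lies at 54431612 to 54445364 of chromosome 14, plus strand. Its mean count was 5046 and its level per kilobase was 1558, with 88.1% of genes lower. Mmp2, gelatinase A, lies at 92827291 to 92853420 of chromosome 8, plus strand. It had a mean count of 3111 and a level per kilobase of 1011, with 82.2% of genes lower. Mmp14, Mmp2 and Timp2 encode the 3 proteins of the surface complex in which proMMP2 is activated. In the pooled libraries the level per kilobase of Mmp14 was 1.54 times that of Mmp2, and that of Timp2 was 4.11 times that of Mmp2. The last ratio was 2.25 with the median transcript and 14.9 with the coding sequence.

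Mmp9, gelatinase B, shares the gelatin and basement membrane substrates of Mmp2 and is a product of neutrophils and other leukocytes. It lies at 164940780 to 164955850 of chromosome 2, plus strand. Mmp9 was the least abundant of the 10 genes by the longest transcript, with a mean count of 112 and a level per kilobase of 35.3, and 19.2% of genes were lower. The level per kilobase of Mmp2 was 28.6 times that of Mmp9. Among the 6 neutrophil markers, S100a9 had a level per kilobase of 866, S100a8 of 719 and Camp of 185. Ngp had 2.72, Elane had 0.687 and Mpo was listed at 0. The part of neutrophils in the level of Mmp9 was not tested.

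Mmp12 and Mmp13 completed the set. Mmp12, macrophage elastase, degrades elastin, and its mean count was 2568 with a level per kilobase of 574. Of all genes 71.8% were lower. Mmp13, an interstitial collagenase that cuts fibrillar collagen, had a mean count of 212 and a level per kilobase of 79.4, with 30.7% of genes lower. Between Mmp12 and Mmp13 lay the widest step in the order of the 10 genes by the longest transcript, a ratio of 7.23 in level per kilobase. The ratio of Mmp12 to Mmp13 was 12.1 with the coding sequence and 22.3 with the median transcript. In those orders it was not a step, as Timp1 and Timp4 lay between Mmp12 and Mmp13. The narrowest step, 1.14, separated Timp1 from Mmp12. That order held only with the longest transcript. Mmp12 was above Timp1 with the median transcript, with the coding sequence and when the mean count was used without length. The other steps were ratios between 1.36 and 2.67. Which neighbours in this order differ by more than the spread between mice is not known, as the table gives no spread of these levels.

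The summed level per kilobase was 17773 for the 4 inhibitors and 12720 for the 6 metalloproteinases, a ratio of 1.40. The ratio rested on the length used. It was 1.80 with the median transcript, 2.75 with no correction for length and 6.60 with the coding sequence, because the coding sequences of the inhibitors are short (633 bases for Timp3) beside their transcripts (4722 bases). The inhibitors exceeded the metalloproteinases under each of these choices. A ratio of messages does not give a ratio of active enzyme to inhibitor, as the enzymes are made as proenzymes.

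Mmp3, Mmp12 and Mmp13 are neighbours on the plus strand of chromosome 9, in a cluster of 10 metalloproteinase genes that spans 427 kb. Mmp13 (ENSMUSG00000050578) lies from 7272514 to 7283331, Mmp12 (ENSMUSG00000049723) from 7344381 to 7369499 and Mmp3 from 7445822 to 7455975. The gaps between them are 61.0 kb and 76.3 kb. Across these 3 neighbours the level per kilobase of Mmp3 was 16.5 times that of Mmp12 and 119 times that of Mmp13. With the median transcript the ratio to Mmp12 was 5.35, and with the coding sequence it was 6.55. With the longest transcript Mmp3 held 93.0% of the summed level per kilobase of the cluster, a share not computed with other lengths. Mmp10, which encodes stromelysin-2, begins 46.4 kb beyond the end of Mmp3 and had a mean count of 11.4, so the level per kilobase of Mmp3 was 1423 times as high. Of the 10 genes of the cluster 6 had a mean count of at least 10, and Mmp1a, Mmp1b and Mmp7 were listed at 0.

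**Figure D2:**
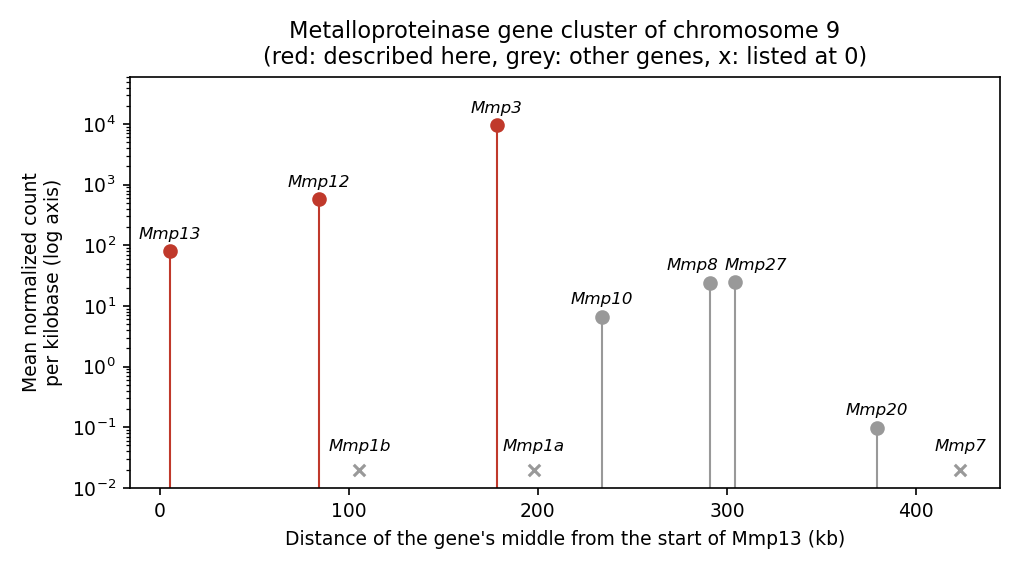
Horizontal axis, distance of the middle of each metalloproteinase gene of the chromosome 9 cluster from the start of Mmp13 in kb; vertical axis, mean normalized count per kilobase over the 6 pooled libraries (log axis), with Mmp13, Mmp12 and Mmp3 in red, the other genes in grey and a cross for a gene listed at 0. The point of Mmp3, at 9463, stands above every other gene of the cluster, and Mmp12 (574) and Mmp13 (79.4) follow.

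The stretches before the starts of these 3 neighbours were set beside that of Timp3 for contrast. AP-1, a dimer of Fos and Jun proteins, is a textbook regulator of stromelysin and collagenase genes. The 250 bases before each RefSeq start were searched on both strands for the AP-1 element TGAGTCA, whose reverse complement is TGACTCA, for the TATA element TATAAA and for the GC box GGGCGG. These 3 motifs share no bases in the hits found. An AP-1 element stood before Mmp3, Mmp13 and the second annotated start of Mmp12, and before 4.46% of the 32851 promoters in the RefSeq table. Mmp3 and Mmp13 also held the TATA element, and both elements together were in 0.721% of all promoters. The windows are printed 5′ to 3′ from the plus strand of GRCm38.p6, with the AP-1 and TATA elements in capitals, and none holds a base that the GENCODE annotation puts in an exon of the gene. The Mmp12 window lies inside that gene, in an intron of the transcripts that begin at its first start.

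Mmp3, chr9:7445572-7445821: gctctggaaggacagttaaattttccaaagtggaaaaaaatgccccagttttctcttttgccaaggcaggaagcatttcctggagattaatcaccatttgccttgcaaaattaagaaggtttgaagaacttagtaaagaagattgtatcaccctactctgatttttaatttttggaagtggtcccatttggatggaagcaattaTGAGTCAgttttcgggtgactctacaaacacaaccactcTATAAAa
Mmp13, chr9:7272264-7272513: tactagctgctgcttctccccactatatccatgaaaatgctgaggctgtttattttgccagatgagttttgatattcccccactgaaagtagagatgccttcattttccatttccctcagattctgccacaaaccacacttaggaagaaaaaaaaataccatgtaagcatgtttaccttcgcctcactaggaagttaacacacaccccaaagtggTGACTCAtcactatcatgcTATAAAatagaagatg
Mmp12, second start, chr9:7347124-7347373: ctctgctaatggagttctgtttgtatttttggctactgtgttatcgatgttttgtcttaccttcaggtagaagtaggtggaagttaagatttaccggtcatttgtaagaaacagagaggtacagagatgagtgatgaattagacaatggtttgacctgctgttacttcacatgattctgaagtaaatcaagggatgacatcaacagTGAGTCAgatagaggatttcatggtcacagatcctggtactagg
Timp3, chr10:86300162-86300371: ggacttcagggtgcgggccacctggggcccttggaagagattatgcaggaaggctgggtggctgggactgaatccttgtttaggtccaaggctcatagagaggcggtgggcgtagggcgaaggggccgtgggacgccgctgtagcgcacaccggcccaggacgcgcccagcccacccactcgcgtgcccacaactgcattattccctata

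In the Mmp3 window the AP-1 element begins 46 bases before the start, in the Mmp12 window 44 bases and in the Mmp13 window 35 bases. The TATA element begins 7 bases before the RefSeq start of Mmp3 and 16 bases before that of Mmp13. The 3 windows hold 1 or 2 CpG dinucleotides each, against a median of 6 over all promoters, and their GC content lies between 37.6% and 40.4%. The first start of Mmp12 had none of the 3 motifs and 0 CpG. The 250 bases before Timp3 hold 18 CpG at a GC content of 65.6%, and those before the RefSeq start of Timp2 hold 21 CpG at 68.0%. The Timp2 window lies wholly inside the gene as GENCODE annotates it, and its base farthest from the RefSeq start is exonic. Both hold a GC box, which for Timp3 lies in the exonic bases left out of the printed stretch, as do Mmp14 and Timp1, and 32.7% of all promoters hold one. The window of Timp4 had none of the 3 motifs. Mmp2 and Mmp9 had no window in the RefSeq table. Mmp3 and Mmp13, which hold the same pair of elements, lay 119-fold apart in level per kilobase. A match of letters is a description only.

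Of the 4 inhibitors, 3 lie within synapsin genes on the opposite strand, an arrangement shared with other vertebrates. Timp1 lies within Syn1, Timp3 within Syn3 and Timp4 within Syn2. Synapsins are proteins of synaptic vesicles in neurons. Their mean counts were 11.7 for Syn1, 83.1 for Syn3 and 273 for Syn2. The count of Timp1 was 49.3 times that of Syn1 and the count of Timp3 was 734 times that of Syn3, whereas Timp4 and Syn2 had nearly equal counts with a ratio of 1.10. Annotated exons shared 1733 bases between Timp3 and Syn3, 90 bases between Timp4 and Syn2 and 0 bases between Timp1 and Syn1. The supplementary methods name a kit that keeps the strand, for RNA depleted of ribosomal RNA. They name no separate kit for poly(A)-selected RNA. Whether strand was used in the quantification is not given in the sources used here. If strand was not kept or not used, reads from the shared bases could not be told apart, for Timp3 and Syn3 as for Timp4 and Syn2. The shared bases were 21.3% of the exon bases of Timp3 and 14.1% of those of Syn3. For Timp4 and Syn2 they were 1.53% and 1.28%. The part of such reads in these counts was not tested. Mmp12 shares 157 exonic bases with Mmp1b on the other strand, and Mmp1b was listed at 0.

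Beyond these 6, the table lists 17 other metalloproteinase genes, of which 11 had a mean count of at least 10. The median level per kilobase was 24.1 over these 17 genes and 831 over the 10 genes described above. Of the 6 metalloproteinases 4, Mmp3, Mmp14, Mmp2 and Mmp12, were the most abundant of all 23. The next were Mmp23 with a level per kilobase of 412, Mmp19 with 186, Mmp11 with 144 and the membrane-bound Mmp15 with 104, and all of these were above Mmp13. Mmp9 took place 12 of 23. Together the 6 genes held 92.2% of the summed level per kilobase of the family.

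**Figure D3:**
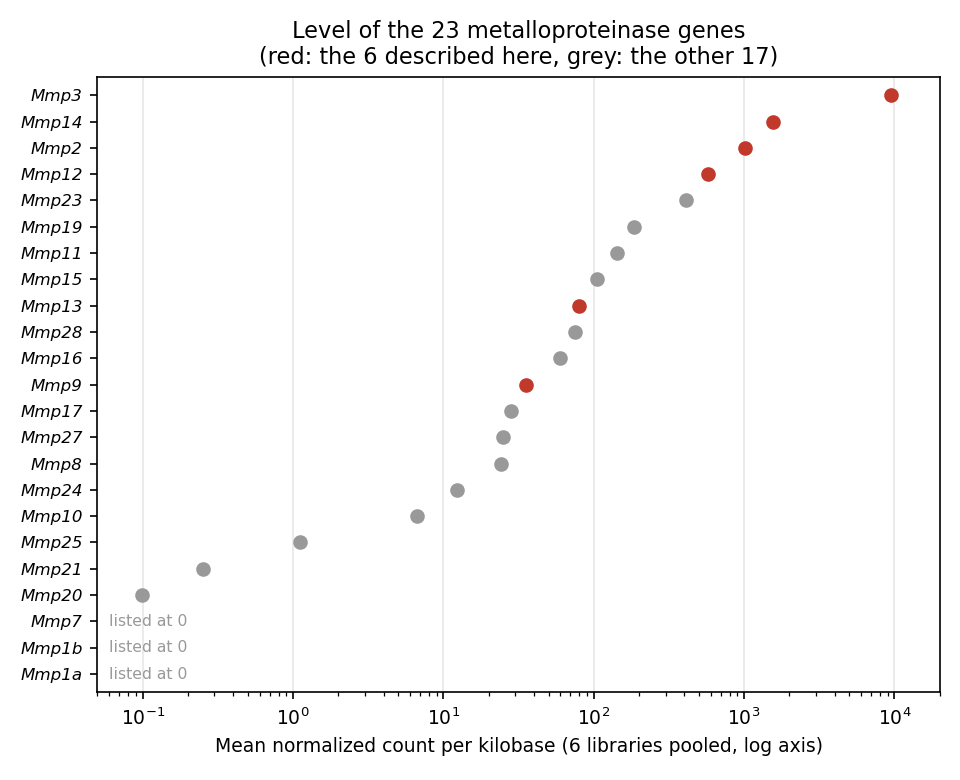
Each row is 1 of the 23 metalloproteinase genes, and the horizontal axis gives the mean normalized count per kilobase over the 6 pooled libraries (log axis), with the 6 genes described here in red and the other 17 in grey. The first 4 places are red, from Mmp3 (9463) to Mmp12 (574), whereas Mmp13 and Mmp9 lie among the grey points, and 3 genes are listed at 0.

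Ratios to the genes of the following lists use the longest transcript and were not computed with other lengths. Genes that activate or restrain metalloproteinases were also present, and 19 of 20 had a mean count of at least 10. The highest was Bsg, which encodes the metalloproteinase inducer basigin, with a level per kilobase of 42301, or 3.28 times that of Timp3. Serpine2, an inhibitor of thrombin and plasminogen activators, followed with 8559, then Serpinf1, the RPE product PEDF, with 6425. A2m, the general protease trap alpha-2-macroglobulin, had 2004, or 3.07 times the level per kilobase of Timp1, and Cd63, a surface partner of TIMP1, had 1924. The lowest was Plg, the precursor of plasmin, a protein made mainly by liver, at a mean count of 1.59. Reck and Furin were picked after their values were seen. Reck, a membrane-anchored inhibitor of MMP2, MMP9 and MMP14, had a level per kilobase of 407, so that of Timp3 was 31.7 times as high. Furin, which removes the propeptide of MMP14, had 126.

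All 12 partners and further targets of the inhibitors had a mean count of at least 10. Itgb1, the beta-1 chain of the integrin that binds TIMP2, had a level per kilobase of 4982. Efemp1 encodes a fibulin of Bruch's membrane that binds TIMP3, and its level per kilobase was 2505. Kdr, the VEGF receptor that TIMP3 can block, had 1244, so the level per kilobase of Timp3 was 10.4 times that of Kdr. Adam17, the sheddase held in check by TIMP3, was picked after its value was seen and had 631. At the low end lay Adamts4 with 20.2 and Adam12 with 9.51.

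Each of the 16 substrate genes of Bruch's membrane and choroid had a mean count above 100, and their median level per kilobase was 852 beside 831 for the 10 genes. Decorin (Dcn) was the highest with 18042, or 1.40 times the level per kilobase of Timp3. The fibrillar collagen genes Col1a2 and Col3a1 had 6960 and 6447, both between Mmp3 and Timp2. Biglycan (Bgn) had 3029 and laminin beta-2 (Lamb2) had 2047. The lowest were Lamc1 with 196 and Lama5 with 124.

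**Figure D4:**
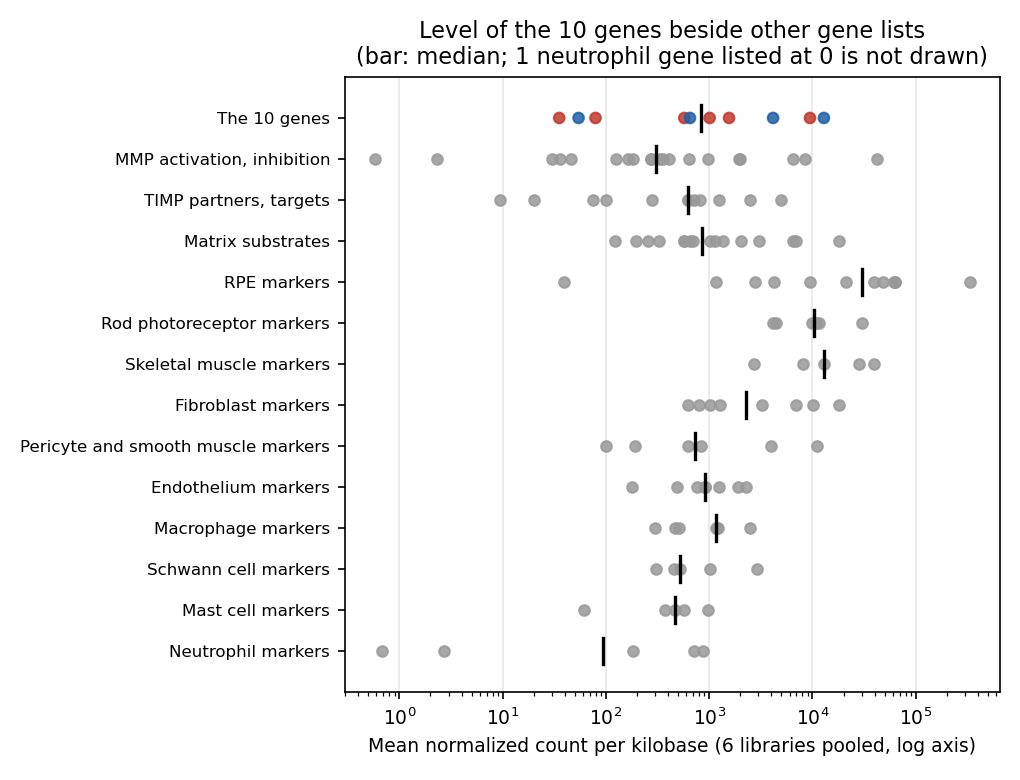
Each row is a gene list and each point a gene, the horizontal axis gives the mean normalized count per kilobase over the 6 pooled libraries (log axis), and the bar marks the median; in the first row inhibitors are blue and metalloproteinases red. The 10 genes span 35.3 to 12909 with a median of 831, beside medians of 852 for matrix substrates and 30485 for RPE markers.

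The labelled tissue was checked against marker genes. All 12 RPE markers had a mean count of at least 10, with a median level per kilobase of 30485, and that of Rpe65 was 4.74 times that of Timp3. Best1, a further RPE gene, was low with 39.3. Markers of other cells were present as well. The median level per kilobase was 10358 over 6 rod photoreceptor genes, 12809 over 5 skeletal muscle genes, 2262 over 8 fibroblast genes, 728 over 6 pericyte and smooth muscle genes, 913 over 8 endothelial genes, 1159 over 7 macrophage genes, 520 over 5 Schwann cell genes, 469 over 5 mast cell genes and 93.9 over 6 neutrophil genes. Rods and muscle lie outside the RPE/choroid, and the protocol removed neural retina and muscle before the layer was collected. Which of these cells carried the messages of the 10 genes cannot be read from bulk libraries and was not tested.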

How the data were processed

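Poly(A)-selected RNA of RPE/choroid from 3 young and 3 aged mice was sequenced, and the groups were taken from the sample titles. Per the study's supplementary methods, the authors used BBDuk for trimming and STAR for mapping to Ensembl GRCm38 transcripts (release 82). Sailfish then gave TPM values, a unit already divided by transcript length. The total count method turned these into normalized counts. The DESeq2 version is not given in the sources used here. The deposited file has 1 row per gene. The mean normalized count is a signal that the authors averaged over the 6 libraries. The further 5 columns hold the authors' own age comparison (log2 fold change, its error, a statistic, p-value and adjusted p-value) and were not used. For lack of values per library, the planned edgeR test was not run.

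The means add up to 40816668. The lowest mean above 0 was 0.157. Between this and 0.174 lay 576 genes with transcripts of up to 10299 bases, close to 1 count in 1 of 6 libraries. The values were therefore read as counts not yet divided by length. The supplementary methods do not say whether the step from TPM to normalized counts undid the division by length. If it did not, the levels per kilobase overcorrect for length, and the values with no length correction are the ones to read. The depth of single libraries is unknown, and no counting interval is given.

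Lengths and positions came from GENCODE M21 (GRCm38), the authors' build, matched by symbol or synonym for 97.0% of the 18479 genes with a mean of at least 10. Promoters came from RefSeq (GRCm38.p6), for 8 of the 10 genes. Named genes were the 10 members and, of each list, at most the 5 highest and 2 lowest, and exceptions are marked. The members and lists were chosen with earlier results of these data known. The ranking code was checked on made-up values of known order. That check covers neither the choice of length nor the spread between mice. Python 3.11.15, numpy 2.4.6, pandas 2.3.3 and matplotlib 3.10.9 were used.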

Additional observations from a re-analysis of the deposited data

How the results depend on the processing

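No paired analysis was possible because only a mean over all libraries is given, and for the same reason the test of young against aged, DESeq2 with its size factors, and leaving out each replicate were not run. The ratio of summed inhibitors to summed metalloproteinases was 1.40 with the longest transcript, 6.60 with the longest coding sequence and 2.75 with no length correction, above 1 each time. The share of Mmp3 among the 6 metalloproteinases fell from 74.4% to 45.0% with the median transcript. Timp3 kept place 1 of 10 under each length. Timp2 and Mmp3 changed places with the coding sequence. Ranked among protein-coding genes alone, 1 of the 10 genes lay in the upper 1%, against 0 among all genes with a mean of at least 10. With a minimum mean of 100 in place of 10, 7 of the other 17 metalloproteinase genes passed in place of 11. The other 23 of 28 alternative values of these summaries lay within 1.5 times the main value. For single genes, 39 of 60 places and ranks did not move or lay within that ratio. The order of the 10 genes moved by 1 or 2 places, and the share of genes below Mmp9, Mmp13 and Timp4 rose when every gene above 0 was ranked and fell with a minimum of 50.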
